A study of Mus musculus with 9 samples.

Results

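The 9 genes described here encode amino acid transporters of the cell surface. They are *Slc3a2*, *Slc7a5*, *Slc7a6*, *Slc7a11*, *Slc7a1*, *Slc1a4*, *Slc1a5*, *Slc38a1* and *Slc38a2*. They were chosen by name, with earlier results of these data known. All 9 were found among the 15184 genes of the deposited table, so each had passed the filter on low values. Their levels were compared between mouse embryonic fibroblasts (MEFs) that carried an empty vector and both lines labelled *Hnrnpk*_SAM.

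Cells take up amino acids through carriers that differ in their cargo and in what drives them. *Slc3a2* encodes the CD98 heavy chain, a glycoprotein that brings a light chain such as *Slc7a5*, *Slc7a6* or *Slc7a11* to the plasma membrane, where the pair exchanges one amino acid for another. The carriers of the *Slc38* family move glutamine and other neutral amino acids together with sodium, and the glutamine they load can be traded by the exchangers for leucine, which the kinase complex mTORC1 senses. When amino acids run short, the transcription factor ATF4 accumulates and raises many transporter and synthesis genes, so these genes are often read as a group.

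RNA-Seq of the polyA+ fraction gave 9 libraries, 3 of empty vector MEFs (Empty), 3 of line SAM1 and 3 of line SAM2. Per the study's methods, WT MEFs received the lentiviral plasmids lentiMPHv2 and lentiSAMv2, which carry an inactive Cas9 and the transcriptional activators of the synergistic activation mediator (SAM) system, and the cells that survived blasticidin and hygromycin were kept. The SAM lines carried a guide RNA for *Hnrnpk*, a gene for an RNA-binding protein, and different guides were used separately. The labels call the control an empty vector, the methods describe a nontargeting guide, and neither states which guide SAM1 or SAM2 carried. In the methods, the sequence printed for the second *Hnrnpk* guide is the same as that printed for the nontargeting guide. The library protocol in the labels names empty vector cells and sgRNA2 cells, and no other guide. No source used here says whether the libraries of a line came from separate cultures, so the p-values measure the spread between libraries, which may be technical.

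The targeted gene was slightly lower in the libraries labelled SAM1 and not significantly higher in those labelled SAM2. *Hnrnpk* had mean normalized counts of 25773 ± 621 in Empty, 23922 ± 264 in SAM1 and 26563 ± 321 in SAM2 (SD, n = 3 each), with a log2 difference from Empty of -0.11 in SAM1 (adjusted p = 0.00252, limma) and 0.044 in SAM2 (adjusted p = 0.159, limma). The study reports overexpression in its *Hnrnpk*_SAM MEFs, of *Hnrnpk* RNA by qRT-PCR and of the protein by Western blot. Those measurements were not analysed here. The groups are named by their labels, and every direction below is relative to those labels. Depth on the listed genes was 41759636 to 49026626 reads in the 8 libraries in which it could be recovered. All 12 fibroblast markers looked for were measured. Of the markers of other cell types, *Ptprc*, *Adgre1* and *Epcam* were not among the listed genes. The macrophage and leukocyte markers *Cd68*, *Cd14* and *Csf1r* were listed. Their sum was 1410 to 1438 in Empty, 2352 to 2469 in SAM1 and 1714 to 1730 in SAM2. The summed endothelial markers were 301 to 357 in Empty, 4613 to 4988 in SAM1 and 638 to 689 in SAM2, nearly all of it *Kdr* in SAM1 (4693 ± 194, n = 3). The summed epithelial markers were 388 to 429, 3733 to 3884 and 243 to 275, again mostly 1 gene in SAM1, *Cldn4* (3691 ± 75.6), beside *Cdh1* (88.7 ± 4.40) and *Krt8* (23.0 ± 4.11, SD, n = 3 each). These sums were highest in SAM1, where most of the transporters were lowest, and their part in the results was not tested. In bulk RNA, fewer cells of a type and less RNA per cell cannot be told apart.

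The promoters of 6 of the 9 genes were matched in the RefSeq table for GRCm38.p6, with 8 windows that run from 250 bases before the start site to 50 bases after it. The windows of *Slc7a11* and *Slc1a4* are shown because they hold the core of the amino acid response element, the kind of sequence to which ATF4 and C/EBP proteins bind. The letters searched were TGATGNAA on both strands, capitals mark the matches, and 3.97% of 32851 promoter windows in the table held at least 1. The *Slc7a11* window is chr3:50443564-50443863 and the *Slc1a4* window is chr11:20332664-20332963, both on the minus strand and written in the direction of transcription.

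Slc7a11: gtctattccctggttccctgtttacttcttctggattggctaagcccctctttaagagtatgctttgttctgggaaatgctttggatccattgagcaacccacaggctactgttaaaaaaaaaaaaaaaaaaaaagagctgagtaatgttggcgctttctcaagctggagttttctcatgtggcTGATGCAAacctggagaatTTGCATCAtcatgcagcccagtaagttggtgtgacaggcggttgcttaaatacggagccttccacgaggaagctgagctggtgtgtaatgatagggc

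Slc1a4: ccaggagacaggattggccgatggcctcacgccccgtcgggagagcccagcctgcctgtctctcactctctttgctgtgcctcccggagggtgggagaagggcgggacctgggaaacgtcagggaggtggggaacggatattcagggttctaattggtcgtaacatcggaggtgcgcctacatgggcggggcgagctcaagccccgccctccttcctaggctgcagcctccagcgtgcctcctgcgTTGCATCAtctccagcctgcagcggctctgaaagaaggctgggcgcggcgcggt

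The *Slc7a11* window held 2 matches, which begin 66 and 47 bases before the start site and lie on opposite strands. The *Slc1a4* window held 1, beginning 4 bases before the start site. The antioxidant response element core TGACNNNGC was found in windows of *Slc7a6*, *Slc7a1* and *Slc38a2*, and in 12.4% of all windows. The E-box CACGTG was in none of the 8 windows and in 7.15% of all windows. A match of letters is a description of the window.

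Most of the transporters were lower in the libraries labelled SAM1 and not in those labelled SAM2. In SAM1 against Empty, 7 of the 9 genes fell and 1 rose, where 74.3% of all genes passed the test (limma on log2(normalized count + 1), Benjamini-Hochberg adjusted p under 0.05), 36.9% passed it as lower and 37.3% as higher. The median log2 difference of the 9 was -0.93, against 0.0093 over all genes. Because the 9 were chosen with earlier results known, the shares of all genes are given as background and not as a test. Of the 9, 6 fell by more than 0.5 on the log2 scale, a size chosen after the values were seen, and 15.2% of all genes did so. The same 6 had all 3 SAM1 libraries below all 3 Empty libraries, as had 37.1% of all genes. In SAM2 against Empty, 5 rose and none fell, where 70.5% of all genes passed and 35.2% passed as higher, and the median of the 9 was 0.26 against -0.0015. In these 5 the SAM2 libraries lay above all Empty libraries, as in 36.7% of all genes. These comparisons share the Empty libraries. In SAM2 against SAM1, all 9 were higher in SAM2, where 60.3% of all genes passed and 31.1% passed as higher. Of the 9, 7 were higher by more than 0.5, as were 8.09% of all genes, and in all 9 the libraries of the lines did not overlap, a separation in this direction found in 34.8% of all genes. The summed normalized count of the 9 was 105188 ± 2561 in Empty, 78846 ± 2899 in SAM1 and 126721 ± 423 in SAM2 (SD, n = 3 each), so the groups did not overlap in their sums.

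**Figure D1:**
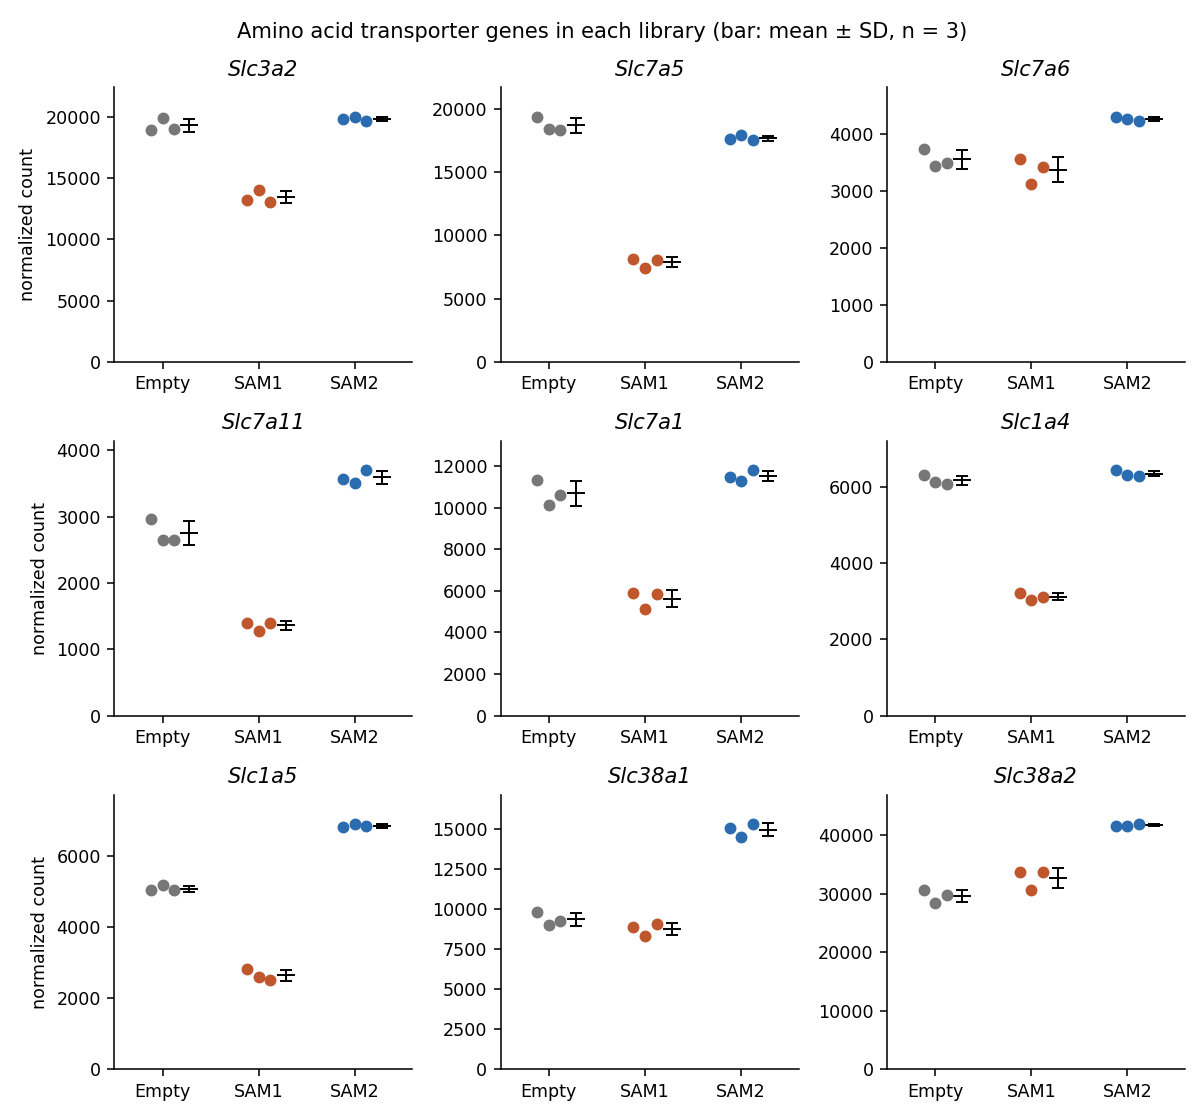
Normalized count (y axis, from 0) of each transporter in the 3 libraries of Empty, SAM1 and SAM2, with the mean and SD beside the points. In *Slc3a2*, *Slc7a5*, *Slc7a11*, *Slc7a1*, *Slc1a4* and *Slc1a5* the 3 SAM1 libraries lie below all others, and in *Slc7a6*, *Slc7a11*, *Slc1a5*, *Slc38a1* and *Slc38a2* the 3 SAM2 libraries lie above all others.

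**Figure D2:**
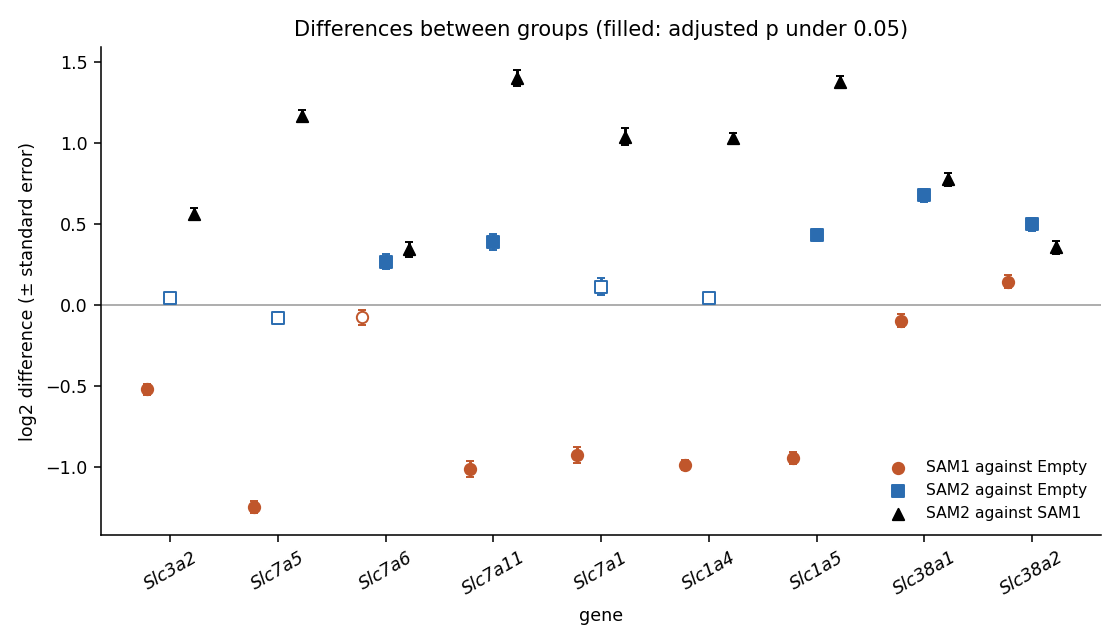
Log2 difference (y axis) with its standard error for each transporter in 3 comparisons, filled where the adjusted p is under 0.05 by limma. SAM1 against Empty runs from -1.25 in *Slc7a5* to 0.14 in *Slc38a2*, SAM2 against Empty from -0.082 to 0.68, and SAM2 against SAM1 from 0.34 to 1.40.

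The heavy chain gene *Slc3a2* lies on the minus strand of chromosome 19 (8684245 to 8701108 in GRCm39, as are the positions that follow). Its normalized counts were 18945, 19894 and 19015 in Empty, 13203, 13984 and 13071 in SAM1, and 19810, 19999 and 19617 in SAM2. The SAM1 libraries were all below the others, and the Empty and SAM2 libraries overlapped. SAM1 had 69.6% of the Empty mean, a log2 difference of -0.52 (SE 0.032, adjusted p = 5.18e-09, limma). SAM2 differed from Empty by 0.039 (adjusted p = 0.286, limma), a value that turned to -0.040 when libraries were centred on their medians and passed the test under quantile normalization (0.16, adjusted p = 0.000485, limma). Over 19 settings, the main one included, its adjusted p ran from 0.000485 to 0.51. *Slc3a2* overlaps the noncoding gene *Snhg1* on the other strand, and no source used here says whether reads were counted by strand. *Snhg1* was lower in both lines by the same amount, -0.29, and SAM2 minus SAM1 was 0.56 in *Slc3a2* (adjusted p = 7.33e-09, limma) and 0.00065 in *Snhg1* (adjusted p = 0.992, limma). The share of reads counted for the wrong gene of this pair was not tested.

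Its light chains differed from one another. *Slc7a5*, which pairs with CD98 to import leucine and other large neutral amino acids, lies on chromosome 8 (122607884 to 122634433, minus strand). It had normalized counts of 19360, 18397 and 18301 in Empty, 8141, 7420 and 8067 in SAM1, and 17579, 17890 and 17488 in SAM2. The 3 groups did not overlap, with SAM1 far the lowest. *Slc7a5* had the largest fall of the 9 in SAM1, to 42.1% of the Empty mean (log2 difference -1.25, SE 0.037, adjusted p = 4.09e-12, limma). In SAM2 its difference of -0.082 did not pass the test (adjusted p = 0.0625, limma), though it passed without SAM1 replicate 2 (adjusted p = 0.0149, limma) and with centred libraries (-0.16, adjusted p = 0.000968, limma), and quantile normalization turned it to 0.024 (adjusted p = 0.551, limma). Over the settings its adjusted p ran from 0.000968 to 0.551. SAM2 was above SAM1 by 1.17 (adjusted p = 3.14e-11, limma).

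*Slc7a6*, a CD98 light chain that exchanges cationic for neutral amino acids, lies on the same chromosome (106895139 to 106925346, plus strand). Its normalized counts were 3750, 3440 and 3504 in Empty, 3571, 3134 and 3432 in SAM1, and 4313, 4278 and 4238 in SAM2. Empty and SAM1 overlapped, and the SAM2 libraries were all above them. The log2 difference was -0.078 in SAM1 (adjusted p = 0.143, limma), which passed the test without SAM1 replicate 1 (-0.12, adjusted p = 0.041, limma) and with centred libraries (-0.12, adjusted p = 0.0215, limma), with adjusted p from 0.0215 to 0.623 over the settings. In SAM2 it rose by 0.26 (SE 0.046, adjusted p = 0.000194, limma), and the SAM2 mean exceeded that of SAM1 by 0.34 (adjusted p = 3.14e-05, limma).

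*Slc7a11* encodes xCT, the light chain that brings in cystine, the source of cysteine for glutathione, in exchange for glutamate. It lies on chromosome 3 (49846975 to 50398070, minus strand), downstream of the promoter printed above. Its normalized counts were 2959, 2650 and 2654 in Empty, 1398, 1280 and 1403 in SAM1, and 3572, 3511 and 3699 in SAM2. The groups did not overlap, and they lay on opposite sides of Empty. *Slc7a11* fell to 49.4% of the Empty mean in SAM1 (log2 difference -1.02, SE 0.049, adjusted p = 5.70e-10, limma) and rose to 130.5% of it in SAM2 (0.39, adjusted p = 1.15e-05, limma). The difference between the lines, 1.40 (adjusted p = 8.91e-11, limma), was the largest of the 9. Pseudogenes and noncoding genes lie within its span, so some reads may belong to them.

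The stoichiometry of light to heavy chain RNA differed between the groups as well. Per kilobase of the canonical transcript, the ratio of *Slc7a5* to *Slc3a2* was 0.74, 0.67 and 0.70 in Empty, 0.45, 0.39 and 0.45 in SAM1, and 0.64, 0.65 and 0.65 in SAM2. The 3 groups did not overlap. The ratio of *Slc7a11* to *Slc3a2* was 0.040 ± 0.0033 in Empty, 0.028 ± 0.0024 in SAM1 and 0.050 ± 0.0018 in SAM2 (SD, n = 3 each). The ratio of *Slc7a6* to *Slc3a2* was 0.126 ± 0.0085, 0.172 ± 0.017 and 0.147 ± 0.0013, and was thus highest in SAM1. A further light chain gene, *Slc7a7*, had a ratio of 0.0040 ± 0.00038 in Empty, 0.051 ± 0.0028 in SAM1 and 0.011 ± 0.00084 in SAM2. Its ratio was below that of *Slc7a11* in Empty and in SAM2, and above it in SAM1. The order in SAM1 rests on the canonical transcript lengths. Without division by length, *Slc7a7* (554 ± 10.4) was below *Slc7a11* (1360 ± 69.9) in SAM1 (SD, n = 3 each). Of the 6 light chains known to pair with CD98, *Slc7a8* and *Slc7a10* were not among the listed genes.

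*Slc7a1* encodes CAT1, a carrier of arginine and lysine that needs no heavy chain, and lies on chromosome 5 (148264220 to 148336848, minus strand). It had normalized counts of 11317, 10143 and 10616 in Empty, 5908, 5154 and 5829 in SAM1, and 11509, 11308 and 11802 in SAM2. The SAM1 libraries were all the lowest, and the lowest SAM2 library lay just under the highest Empty library. *Slc7a1* fell to 52.7% of the Empty mean in SAM1 (log2 difference -0.93, SE 0.051, adjusted p = 1.91e-09, limma). In SAM2 it differed by 0.11 (adjusted p = 0.0657, limma), which passed the test without Empty replicate 1 (0.15, adjusted p = 0.0168, limma), without SAM1 replicate 2 (adjusted p = 0.0125, limma) and under quantile normalization (0.20, adjusted p = 0.00235, limma), with adjusted p from 0.00235 to 0.573 over the settings. SAM2 exceeded SAM1 by 1.04 (adjusted p = 1.99e-09, limma).

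The *Slc1a4* and *Slc1a5* genes encode ASCT1 and ASCT2, exchangers of small neutral amino acids, of which ASCT2 is a main entry route for glutamine in dividing cells. *Slc1a4* lies on chromosome 11 (20252180 to 20282774, minus strand), with a response element core beside its start site in the window printed above. It had normalized counts of 6322, 6141 and 6096 in Empty, 3220, 3027 and 3120 in SAM1, and 6441, 6323 and 6305 in SAM2. SAM1 was at 50.5% of Empty and apart from the other libraries, while Empty and SAM2 overlapped. The log2 difference was -0.99 in SAM1 (SE 0.031, adjusted p = 7.21e-12, limma). In SAM2 it was 0.039 (adjusted p = 0.273, limma), and it turned to -0.040 with centred libraries and passed the test under quantile normalization (0.10, adjusted p = 0.00557, limma), with adjusted p from 0.00557 to 0.576 over the settings. SAM2 exceeded SAM1 by 1.03 (adjusted p = 2.03e-11, limma).

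*Slc1a5* lies on chromosome 7 (16515265 to 16532731, plus strand). Its normalized counts were 5041, 5185 and 5036 in Empty, 2810, 2597 and 2522 in SAM1, and 6807, 6899 and 6846 in SAM2. As in *Slc7a11*, the groups lay on opposite sides of Empty without overlap. *Slc1a5* fell to 52.0% of the Empty mean in SAM1 (log2 difference -0.95, SE 0.037, adjusted p = 7.19e-11, limma) and rose to 134.7% of it in SAM2 (0.43, adjusted p = 2.77e-07, limma). The lines differed by 1.38 (adjusted p = 8.20e-12, limma). Per kilobase, the ratio of *Slc1a5* to *Slc1a4* was 1.19 ± 0.034 in Empty, 1.22 ± 0.049 in SAM1 and 1.55 ± 0.027 in SAM2 (SD, n = 3 each), so both genes fell in near proportion in SAM1, and of this pair only *Slc1a5* rose in SAM2.

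In the main fit, the sodium-coupled glutamine carriers were close to Empty in the libraries labelled SAM1 and above it in those labelled SAM2. *Slc38a1*, which encodes SNAT1, lies on chromosome 15 (96469298 to 96541851, minus strand). It had normalized counts of 9819, 9019 and 9250 in Empty, 8860, 8321 and 9067 in SAM1, and 15046, 14522 and 15294 in SAM2. Empty and SAM1 overlapped, and SAM2 lay far above both. *Slc38a1* had the largest rise of the 9 in SAM2, to 159.7% of the Empty mean (log2 difference 0.68, SE 0.039, adjusted p = 4.96e-09, limma). In SAM1 it fell by 0.098 on the log2 scale (adjusted p = 0.0384, limma). That small difference missed the threshold without Empty replicate 1 (-0.063), Empty replicate 3 (-0.11), SAM1 replicate 1 (-0.11), SAM1 replicate 2 (-0.062) or SAM2 replicate 1 (-0.098) and by DESeq2 on the recovered reads (-0.098, adjusted p = 0.0646), and turned to 0.032 under quantile normalization, with adjusted p from 0.00415 to 0.435 over the settings. The lines differed by 0.77 (adjusted p = 2.92e-09, limma).

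*Slc38a2* encodes SNAT2, the carrier that amino acid shortage and high osmolarity are best known to raise, and lies next to it (96585266 to 96597894, minus strand). It had the highest normalized counts of the 9, with 30591, 28438 and 29682 in Empty, 33737, 30605 and 33656 in SAM1, and 41613, 41582 and 41868 in SAM2. SAM2 lay above all other libraries, and SAM1 lay above Empty, with SAM1 replicate 2 only just over Empty replicate 1. *Slc38a2* was the 1 gene of the 9 that rose in both lines, by 0.14 in SAM1 (SE 0.039, adjusted p = 0.00463, limma) and by 0.50 in SAM2 (adjusted p = 9.12e-08, limma), and SAM2 exceeded SAM1 by 0.35 (adjusted p = 4.66e-06, limma). Over the 19 settings, its difference from Empty ran from 0.097 to 0.33 in SAM1 and from 0.42 to 0.71 in SAM2. Per kilobase, the ratio of *Slc38a2* to *Slc38a1* was 4.80 ± 0.071 in Empty, 5.67 ± 0.10 in SAM1 and 4.24 ± 0.10 in SAM2 (SD, n = 3 each), and the groups did not overlap.

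The lines were also pooled, since the design sets the *Hnrnpk*_SAM cells as a whole against the empty vector. With both lines as 1 group of 6 libraries, *Slc38a2* was the 1 gene of the 9 to pass (log2 difference 0.32, adjusted p = 0.0324, limma), where 53.9% of all genes passed and 26.8% passed as higher. It missed the threshold when Empty replicate 1 (adjusted p = 0.065), 2 (0.109) or 3 (0.0844), or SAM2 replicate 1 (0.0546), 2 (0.0549) or 3 (0.0536) was left out of the limma fit, and over all settings the adjusted p ran from 0.00415 to 0.109. *Slc7a5* had a larger pooled difference, -0.66, with a standard error of 0.33 (adjusted p = 0.119, limma). In the pooled fit the distance between the lines counts as spread within the group.

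The order of the levels changed with the group. Per kilobase, *Slc3a2* was highest in Empty (7548 ± 207), followed by *Slc38a2* (6314 ± 231) and *Slc7a5* (5313 ± 166), with no overlap between these neighbours. *Slc1a5* (1840 ± 30.5), *Slc1a4* (1552 ± 30.1), *Slc7a1* (1462 ± 80.8), *Slc38a1* (1316 ± 57.9) and *Slc7a6* (949 ± 43.7) came next, and *Slc7a11* was lowest (299 ± 19.2, SD, n = 3 each). *Slc1a4* and *Slc7a1* overlapped in each of the 3 groups. In SAM1, *Slc38a2* led with 6975 ± 381 per kilobase against 5252 ± 193 for *Slc3a2*, *Slc38a1* moved from place 7 to place 4 (1230 ± 54.2), and *Slc1a5* (956 ± 54.0) overlapped *Slc7a6* (900 ± 59.4). *Slc38a2* led in SAM2 as well (8902 ± 33.5), and *Slc7a11* was last in every group.

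**Figure D3:**
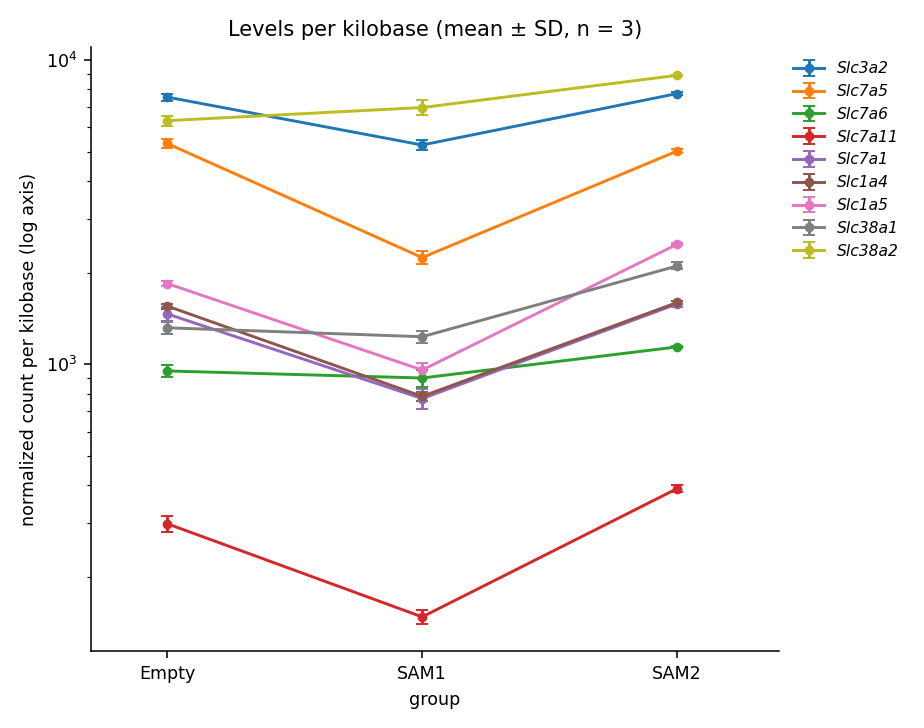
Normalized count per kilobase of the canonical transcript (log axis) for each transporter in Empty, SAM1 and SAM2, as mean and SD of 3 libraries. *Slc38a2* rises from 6314 to 6975 and 8902, while *Slc7a5* goes from 5313 to 2239 and back to 5019.

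Across the 9 libraries, which share the 3 groups, the transporters fell into patterns of different shape. *Slc7a5* and *Slc1a4* had a Pearson r of 0.995 on the log2 scale, and *Slc7a11* and *Slc1a5* one of 0.992. *Slc38a1* and *Slc38a2* had an r of 0.917, whereas *Slc7a5* and *Slc38a2* had an r of 0.19. The genes most like *Slc7a5* over the 9 libraries were *Sh2d6* (r = 0.999), *Cd276* (0.998) and *Glce* (0.998), and 565 genes of the table had an r above 0.95 with it. For *Slc38a1* they were *Kdm7a* (0.998), *Uhrf1bp1* (0.997) and *Ptprm* (0.996), with 330 genes above 0.95, and for *Slc7a11* they were *Zc3hav1* (0.998), *Cntnap1* (0.998) and *Ergic1* (0.997), with 387. With 3 groups, an r this high mainly says that the group means stand in a like order and spacing.

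The *Slc38* genes also share a stretch of chromosome 15. *Slc38a4*, which encodes the neutral amino acid carrier SNAT4, follows *Slc38a2* with a start site 361 kb away. It rose from 278 ± 13.4 in Empty to 2363 ± 67.5 in SAM1 and 3624 ± 68.8 in SAM2 (SD, n = 3 each), log2 differences of 3.08 (adjusted p = 5.14e-15, limma) and 3.70 (adjusted p = 8.77e-16, limma). Among the 10 other listed genes whose annotated start was within 1 Mb of that of *Slc38a2*, 7 were higher and 2 lower in SAM1 and 5 were higher and 1 lower in SAM2, with medians of 0.34 and 0.40 on the log2 scale. Over all genes, 37.3% were higher and 36.9% lower in SAM1, and 35.2% were higher and 35.3% lower in SAM2. The median over the chromosome was 0.19 in SAM1 and 0.32 in SAM2. The SAM2 differences of *Slc38a1* (0.68) and *Slc38a2* (0.50) were exceeded by 2 and 4 of these 10 neighbours. Their SAM1 differences (-0.098 and 0.14) were exceeded by 8 and 8 of them. The rise of *Slc38a2* in SAM1 was thus smaller than the median of its neighbours and that of its chromosome. Some neighbours that exceeded both genes in SAM1 were scarce. They were *Gm49172*, *Gm49506* and *2610037D02Rik*, with Empty means of 9.95, 3.23 and 17.9 normalized counts. *2610037D02Rik* also exceeded both genes in SAM2. *Scaf11* (0.57) and *Arid2* (0.79), whose start sites were 239 and 413 kb from that of *Slc38a2*, were chosen for mention after their values were seen. The part of the surrounding chromosome in the *Slc38a1* and *Slc38a2* values was not tested. Around the other transporters, the medians of genes within 1 Mb ran from -0.30 to 0.18 in SAM1 and from -0.21 to 0.12 in SAM2, leaving out *Slc7a11*, which had 1 listed neighbour.

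**Figure D4:**
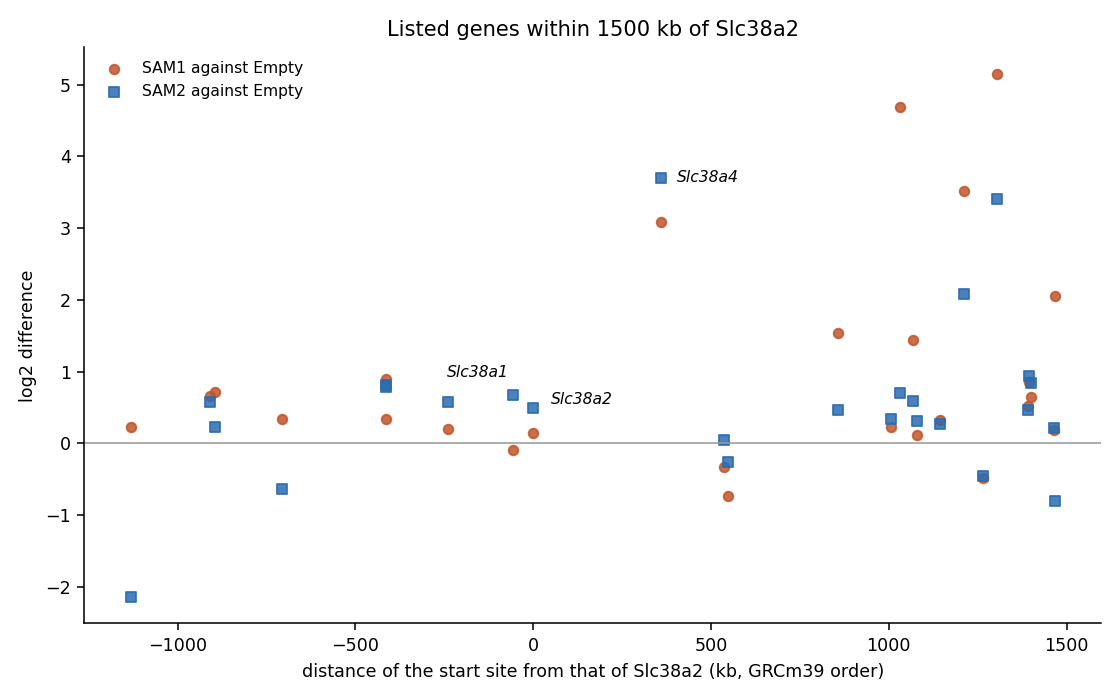
Log2 difference from Empty (y axis) of each listed gene within 1500 kb of *Slc38a2* by the distance of its start site in kb (x axis), for SAM1 and SAM2. *Slc38a1* and *Slc38a2* lie among neighbours that are mostly above 0, and *Slc38a4* stands at 3.08 in SAM1 and 3.70 in SAM2.

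For the gene lists that follow, the share of all genes that rose and fell was 37.3% and 36.9% in SAM1, 35.2% and 35.3% in SAM2, and 31.1% and 29.2% in SAM2 against SAM1. The lists too were chosen with earlier results known, so these shares are background only. Of 46 further transporters looked for, 28 were listed, and 16 rose and 8 fell in SAM1 against Empty, with a median log2 difference of 0.36, where 37.3% of all genes rose. In SAM2, 16 rose and 7 fell, with a median of 0.37, and in SAM2 against SAM1 11 were higher and 10 lower. *Slc7a7* (y+LAT1) rose by 3.13 in SAM1 and 1.54 in SAM2, and it lies on chromosome 14, whose listed genes had medians of 0.53 and 0.57. The glutamate carriers *Slc1a3* (2.89 and 1.69) and *Slc1a2* (1.83 and 1.33) and the proline carrier *Slc6a7* (2.04 and 1.01) rose as well, and so did *Slc38a3* (1.43 and 1.95), which had at most 18.8 normalized counts in any library. *Slc1a7* (-2.27 in SAM1 and -0.79 in SAM2) and *Slc6a19* (-1.01 and -1.45) fell. Most of these were scarce, with means under 100 in Empty apart from *Slc38a4* and *Slc1a3*. *Slc7a3* and *Slc6a9*, chosen after their values were seen, were highest in SAM2. *Slc7a3*, a cationic carrier related to *Slc7a1*, had 254 ± 5.85 in Empty, 266 ± 13.0 in SAM1 and 2177 ± 49.7 in SAM2, and the glycine carrier *Slc6a9* had 4171 ± 197, 2714 ± 92.0 and 5891 ± 20.1 (SD, n = 3 each).

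The next list held enzymes that make or convert amino acids. Of 24 enzymes, 23 were listed, and 16 fell and 6 rose in SAM1 (median -0.46), 13 rose and 10 fell in SAM2 (median 0.24), and 16 were higher and 3 lower in SAM2 than in SAM1 (median 0.58), where 36.9% of all genes fell in SAM1, 35.2% rose in SAM2 and 31.1% were higher in SAM2 than in SAM1. *Pycr1*, which completes proline synthesis, fell in both lines (log2 differences of -1.63 in SAM1 and -0.68 in SAM2), as did *Ass1*, of arginine synthesis (-1.06 and -1.33). *Cbs*, which makes cystathionine, rose by 0.57 and 1.82. Among genes chosen after their values were seen, *Cth*, which releases cysteine from cystathionine, had 4195 ± 36.5 in Empty, 1242 ± 25.5 in SAM1 and 6904 ± 120.5 in SAM2. Asparagine synthetase, *Asns*, had 12356 ± 472, 8996 ± 166 and 17402 ± 248 (SD, n = 3 each), and *Glul*, which makes glutamine, went the other way, by 2.44 in SAM1 and -0.44 in SAM2.

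The regulators of the response to amino acid shortage were all measured. Of 16, 11 fell and 4 rose in SAM1 (median -0.36), 8 rose and 6 fell in SAM2 (median 0.064), and 13 were higher and 1 lower in SAM2 than in SAM1 (median 0.44). Over all genes, 36.9% fell in SAM1 and 31.1% were higher in SAM2 than in SAM1, and with 35.2% rising and 35.3% falling in SAM2 the SAM2 counts of this list were near those of all genes. *Atf4* itself, chosen after its values were seen, had 25609 ± 876 in Empty, 23290 ± 819 in SAM1 and 32853 ± 292 in SAM2, log2 differences of -0.14 (adjusted p = 0.00187, limma) and 0.36 (adjusted p = 3.85e-07, limma). *Atf5* (-0.99 and -0.30) and *Cebpg* (-0.79 and -0.28), transcription factors that ATF4 is known to induce or partner, fell in both lines. The eIF2α kinase genes *Eif2ak3* (0.74 and 0.84) and *Eif2ak4* (0.48 and 0.45) rose in both lines. Genes of a list are named by a pass in the pooled fit, which favours those that move alike in both lines.

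Glutathione is made from the cysteine that imported cystine supplies. Of 13 genes of its synthesis and use, 10 were listed, with 4 higher and 3 lower in SAM1 (median 0.051) and 6 higher and 2 lower in SAM2 (median 0.17). The SAM1 counts were near the shares of all genes, 37.3% and 36.9%, and in SAM2 35.2% of all genes rose. *Gclc*, the rate-limiting synthesis enzyme, rose by 0.86 and 0.82 and glutathione reductase, *Gsr*, by 0.56 and 0.38. *Ggt7* rose by 0.38 and 0.97, and *Ggct* fell (-0.24 and -0.82). *Chac1*, which degrades glutathione and was chosen after its values were seen, fell in SAM1 (-0.27) and rose in SAM2 (0.52), as *Slc7a11* did. Among 30 genes that sense amino acids upstream of mTORC1, 19 were lower and 5 higher in SAM1 (median -0.17), and 10 were lower and 8 higher in SAM2 (median 0.00058), where 36.9% of all genes fell in SAM1 and 35.3% in SAM2. *Rragd* (-2.37 and -2.90), *Kptn* (-0.80 and -0.74) and *Lamtor1* (-0.67 and -0.52) fell, while *Rragb* rose by 1.48 and 1.16.

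Markers of dividing cells were higher in both lines. All 10 rose in SAM1 and all 10 in SAM2, with medians of 1.46 and 1.36, and their summed counts were 21132 to 21472 in Empty, 49659 to 50846 in SAM1 and 51648 to 52881 in SAM2. *Cenpe* rose by 1.91 and 1.67, *Bub1b* by 1.62 and 1.54, *Mki67* by 1.46 and 1.43, and *Ccna2* by 1.45 and 1.41. Of the 12 fibroblast markers, 8 fell and 3 rose in SAM1 and 6 fell and 4 rose in SAM2. *Dcn* (-2.12 and -2.22) and *Pdgfra* (-0.60 and -0.81) fell, whereas *Fbln1* rose by 2.30 and 2.06 and *Pdgfrb* by 0.94 and 0.54.

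**Figure D5:**
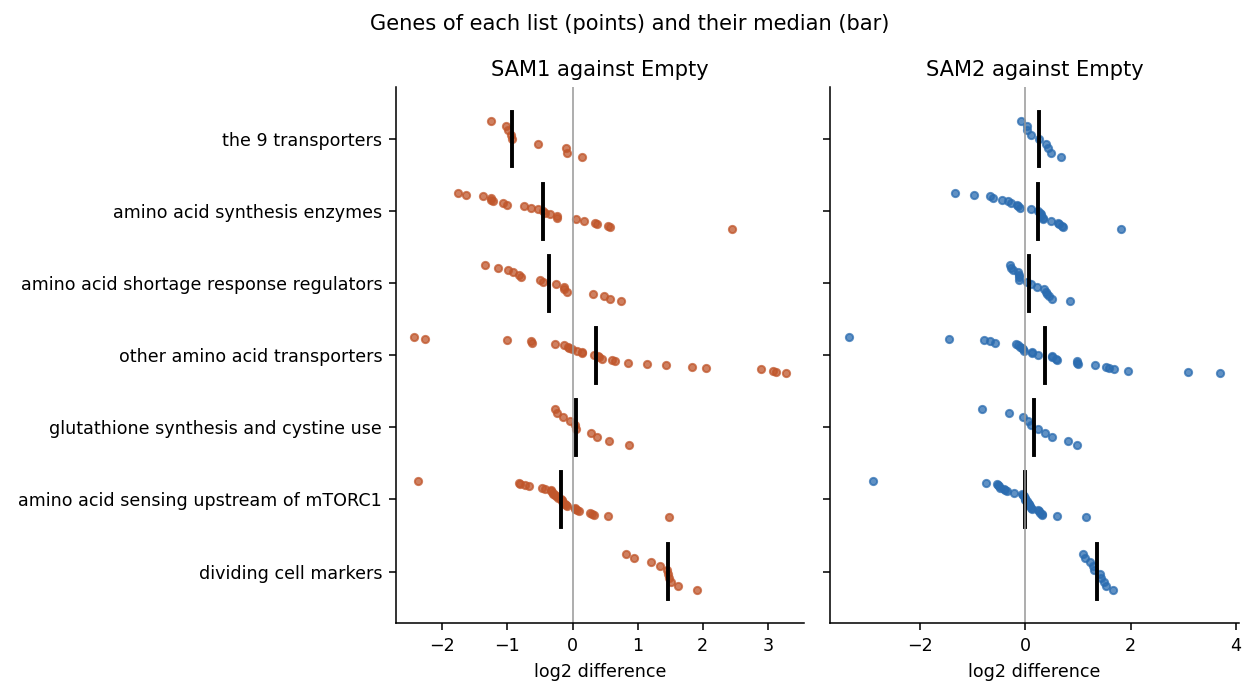
Log2 difference from Empty (x axis) of each gene (points) and the median (bar) of the 9 transporters and 6 gene lists, in SAM1 and SAM2. The medians of the transporters are -0.93 and 0.26, those of the synthesis enzymes -0.46 and 0.24, and those of the dividing cell markers 1.46 and 1.36.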

How the data were processed

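Libraries were made with a strand-directional kit and sequenced in read pairs. Per the labels and the study's methods, the authors checked reads with FastQC (0.11.0), aligned them to GRCm39 with TopHat2 and Bowtie, assigned them to genes with HTSeq and scaled each library by a DESeq2 size factor. What they deposited is thus a normalized count, treated here as a signal, and the authors kept genes above 10 in at least 30% of libraries. Whether counting used strand is not given in the sources used here.

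Because the values are not raw counts, limma (3.58.1, with trend, in R 4.3.3) was run on log2(value + 1), where changes of low genes appear smaller than they are. A fit of all 9 libraries in 3 groups compared SAM1 and SAM2 with Empty and with each other, and a fit in 2 groups pooled the lines. Tests were two-sided, with Benjamini-Hochberg adjustment over 15184 genes and a threshold of 0.05. Levels per kilobase used the length of the canonical transcript in GENCODE vM39 of GRCm39, where 14791 gene names matched 1 entry, 68 matched several and 325 matched no entry.

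Whole reads were recovered from the steps of the values in 8 libraries, in which 100% of values were whole. SAM2 replicate 1 was left out of the count tests because its step is close to 1. The test scripts were checked on simulated counts. Alternatives were pseudocounts of 10 and 0.1, only genes above 10 in every library or with a mean of at least 100, quantile normalization, centring on the median, the replicate block, edgeR (4.0.16), DESeq2 (1.42.0) and leaving out each library.

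The transporters and gene lists were chosen with earlier results of these data known. Of each list, the text names the genes that passed in the pooled fit with the largest difference (at most 4, or 8 of the other transporters), and marks genes named outside this rule. A gene that meets the rule is not reported here. Lists of macrophage, muscle and neural markers were also read. Of 8 macrophage and leukocyte markers 3 were listed (*Cd68* rose by 0.50 and 0.60 and *Cd14* by 0.99 and 0.34 in SAM1 and SAM2), of 6 muscle markers 1 (*Des*, 0.62 and 1.81), and of 6 neural markers 3 (*Tubb3*, 1.57 and 1.08, and *Map2*, -1.06 and -0.82). The other listed macrophage and leukocyte marker, *Csf1r*, is named outside the rule. It differed from Empty by 0.16 in SAM1 (adjusted p = 0.125, limma) and by -1.01 in SAM2 (adjusted p = 3.10e-07, limma). Protein sequences were not used here.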

Additional observations from a re-analysis of the deposited data

Results flagged for a closer look

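The effects of the lines, each measured against the same Empty libraries, differed in all 9 transporters by the test of the difference itself in the limma fit of 3 groups. SAM2 minus SAM1 on the log2 scale was 0.56 for *Slc3a2*, 1.17 for *Slc7a5*, 0.34 for *Slc7a6*, 1.40 for *Slc7a11*, 1.04 for *Slc7a1*, 1.03 for *Slc1a4*, 1.38 for *Slc1a5*, 0.77 for *Slc38a1* and 0.35 for *Slc38a2*. In each gene all 3 SAM2 libraries were above all 3 SAM1 libraries, a separation that 34.8% of all genes showed in this direction. Of the 9, only *Slc7a11* and *Slc1a5* passed the test on opposite sides of Empty in both lines with libraries that did not overlap. *Slc38a1* also passed on opposite sides, but its SAM1 libraries overlapped those of Empty.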

How the results depend on the processing

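The falls of *Slc3a2*, *Slc7a5*, *Slc7a11*, *Slc7a1*, *Slc1a4* and *Slc1a5* in SAM1, the rises of *Slc38a2* in SAM1 and of *Slc7a6*, *Slc7a11*, *Slc1a5*, *Slc38a1* and *Slc38a2* in SAM2, and the excess of SAM2 over SAM1 in all 9 passed the test in all 19 settings run. Over all alternatives and the 9 genes, 618 values kept their direction and side of the threshold, 14 lost it, 12 gained it and 4 turned in sign. These 4 were small differences under another scaling: *Slc38a1* in SAM1 (0.032) and *Slc7a5* in SAM2 (0.024) under quantile normalization, and *Slc3a2* (-0.040) and *Slc1a4* (-0.040) in SAM2 with libraries centred on their medians. Of the 9 genes, 8 passed in SAM2 against Empty under quantile normalization. In the main fit 5 passed, where 70.5% of all genes did. In the pooled comparison, 0 passed with centred libraries and 0 with the replicate block, where 55.3% and 48.4% of all genes passed. When a library was left out, 0 to 1 passed, where 44.5% to 53.6% of all genes did. The number of all genes called ran from 9102 to 11631 in SAM1, 8822 to 11095 in SAM2, 7467 to 9812 between the lines and 6761 to 8396 in the pooled fit. The 9102 in SAM1 and 8822 in SAM2 came from testing only genes with a mean of at least 100. They were 80.3% and 77.8% of the genes tested there.

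Libraries of the same replicate number were not taken as pairs, since not every pair correlated above 0.1. The mean correlation of their departures from the group mean was 0.0531 over 9 pairs (0.00237 to 0.117), and for libraries of different number it was -0.0265 over 18 pairs. With the replicate block, the pooled fit called 7343 genes against 8179, *Slc38a2* lost its pooled call (0.32, adjusted p = 0.0662, limma), and *Slc7a6* in SAM1 (-0.078, adjusted p = 0.0454, limma), *Slc7a5* in SAM2 (-0.082, adjusted p = 0.0252, limma) and *Slc7a1* in SAM2 (0.11, adjusted p = 0.00524, limma) gained one. In the fit of 3 groups, SAM1 against Empty had more genes called with the block, 11631 against 11275.

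Differences near or under the median SD within groups, 0.074 on the log2 scale, such as those of *Slc38a1* and *Slc7a6* in SAM1, are at the limit of 3 libraries a group.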
